A study of Drosophila melanogaster with 32 samples.

Results

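miR-193 and miR-986 are miRNAs of Drosophila melanogaster that are described here because the level of their 5p arm in Ago1 RISC, the Argonaute complex that holds most miRNAs, differed between old and young flies. They were chosen by the age change in Ago1, averaged over both sexes and both genotypes. All rows of either hairpin were then taken, the 5p and the 3p arm of each, which gives 4 of the 209 miRNA rows in the table of reads of up to 25 nt. In the table of reads of exactly 21 nt, only the 5p arms have a row, which gives 2 of 156 miRNA rows. Every age comparison of these rows below is therefore a description without a test, and tests are given only for sex, genotype, the 2 Argonautes and the difference of the age change between sexes or genotypes.

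Small RNAs were sequenced from Ago2 and Ago1 immunoprecipitates of whole adult flies, with 40 flies in a lysate and 32 libraries in all. Each combination of Argonaute, genotype, sex and age had 2 replicates, which carry the experiment numbers 1 and 2 in the labels. The dFOXO-null flies were wDah;dfoxo{delta}94, a single deletion allele made by imprecise excision of a P element and backcrossed to wDah, and the wDah flies were the strain without that deletion. Old flies were 35 d and young flies 5 d of age, both were kept at 25 °C on banana agar with males and females of a genotype together, and the old and young flies that share a genotype and an experiment were siblings. This gives 8 sibling pairs in each precipitate, and since males and females were housed together, pairs of the 2 sexes may not be independent. All tissues are mixed in a whole-fly lysate, so fewer cells of a type and less RNA per cell cannot be told apart. Levels are given in RPM, the reads of a miRNA scaled to a library size of 1000000 mapped reads, with the spike-ins left out.

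A miRNA hairpin is cut by Drosha and then by Dicer-1 into a short duplex, from which the 5p or the 3p arm is kept by an Argonaute and guides it to messenger RNAs that pair with the seed, the bases near its 5′ end. In flies Ago1 receives most miRNAs, whereas Ago2 receives siRNAs made by Dicer-2, among them those against transposons, and a smaller set of miRNAs. The 3′ end of a loaded miRNA can be trimmed or extended, so an arm can be present in several lengths. dFOXO is the fly transcription factor that insulin signalling restrains.

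The mature sequences of miR-193 are shown first with those of miR-34-5p and miR-2c-5p, the other miRNAs whose averaged age change in Ago1 passed the same threshold, so that the seeds can be compared. All are from RefSeq on the dm6 assembly, 5′ to 3′, with the seed (bases 2 to 8) in capitals.
miR-193-5p: uUGGGAUUuuuuagaucagcag
miR-193-3p: uACUGGCCuacuaagucccaac
miR-34-5p: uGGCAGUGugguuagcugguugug
miR-2c-5p: uCAUCAAAaagggcugaagaaagau
The 4 seeds differ. No other of the 485 mature miRNAs of the RefSeq table has the seed of either arm of miR-193, and the same holds for either arm of miR-986, whose sequence is not shown. The 5p arms of miR-193 and miR-986 both begin with U and are both 22 nt long. miR-34-5p lies at chr3R:10100952-10100975 on the plus strand and miR-2c-5p at chr3R:15417802-15417826 on the minus strand.

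The mir-193 hairpin lies on the plus strand of chromosome arm 3L at chr3L:21574014-21574121, 490 bp beyond SMC5 and 9 bp before EMC10, both on the same strand, and overlaps no other annotated gene. Its 5p arm spans chr3L:21574032-21574053 and its 3p arm chr3L:21574086-21574107. The mir-986 hairpin lies on the plus strand of chromosome arm 2R at chr2R:8444982-8445081, inside the cytochrome P450 gene Cyp4e2 and on the same strand. It is intronic in both annotated transcripts of that gene, in intron 2 of the transcript with 7 exons and in intron 1 of the transcript with 6 exons. Its neighbours Cyp4ad1 and Cyp4e1, which also encode P450 enzymes, lie 2175 and 2369 bp away.

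Depth differed between the Argonautes. Ago2 libraries held 30604 to 561722 mapped reads of up to 25 nt (median 111162) and Ago1 libraries 838988 to 5398798 (median 2381814.5). In Ago2 the miRNAs made up 55.5% to 69.5% of these reads in females and 74.8% to 96.0% in males, the rest being reads of rows that are not miRNAs, such as transposons, whereas in Ago1 they made up 98.6% to 99.8%. Summed levels of 3 ovary miRNAs separated the sexes, at 12103 to 52210 RPM in female and 9.09 to 91.6 RPM in male Ago1 libraries, and those of 19 testis miRNAs did so the other way round, at 55.04 to 315 RPM in female and 685 to 1520 RPM in male Ago1 libraries. Replicates differed by more than sampling noise in all 16 groups.

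miR-193-5p was low in old flies and higher in their young siblings in every Ago1 comparison. In dFOXO-null females its level was 20.7 and 50.5 RPM at 35 d, against 64.9 and 127 RPM at 5 d. In wDah females it was 21.5 and 31.4 RPM at 35 d, against 91.8 and 121 RPM at 5 d. In females of either genotype both old libraries lay below both young ones. In dFOXO-null males it was 53.3 and 83.5 RPM at 35 d, against 84.7 and 187 RPM at 5 d. In wDah males it was 16.6 and 41.6 RPM at 35 d, against 133 and 197 RPM at 5 d. The wDah males showed the widest gap, and in dFOXO-null males the higher old library came close to the lower young one. Over all Ago1 libraries the lowest, median and highest levels were 16.6, 36.5 and 83.5 RPM at 35 d and 64.9, 124 and 197 RPM at 5 d, so the ages overlapped only through the higher old dFOXO-null male library. The level was lower at 35 d in 8 of 8 sibling pairs, by 1.59-fold to 8.05-fold, with a median log2 change of −1.80 (SD 0.73) and a fitted change of −1.73 ± 0.34 (SE), −1.79 in experiment 1 and −1.67 in experiment 2. These values rest on 18 to 451 reads per library at 35 d and 117 to 782 at 5 d.

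miR-986-5p changed in the opposite direction and was far more abundant. In dFOXO-null females its level was 3185 and 4244 RPM at 35 d, against 1702 and 2191 RPM at 5 d. In wDah females it was 3499 and 4595 RPM at 35 d, against 2066 and 2446 RPM at 5 d. Within females the old libraries again did not overlap the young ones, here on the high side. In dFOXO-null males it was 8146 and 12418 RPM at 35 d, against 3417 and 4564 RPM at 5 d. In wDah males it was 5406 and 7326 RPM at 35 d, against 3844 and 5713 RPM at 5 d. The old dFOXO-null males held the highest levels of all, and wDah males were the only group in which old and young libraries overlapped. The level was higher at 35 d in 8 of 8 sibling pairs, by 1.28-fold to 2.72-fold, with a median log2 change of 0.91 (SD 0.36) and a fitted change of 0.89 ± 0.19 (SE), 0.86 in experiment 1 and 0.93 in experiment 2. Each Ago1 library held 2936 to 67042 reads of this arm.

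**Figure D1:**
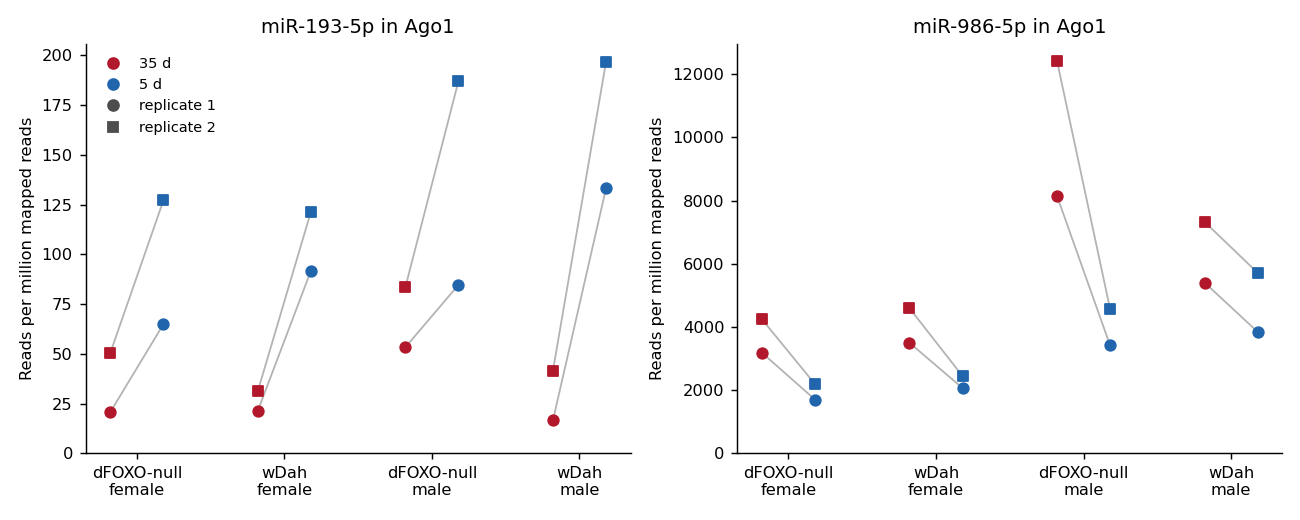
Level of miR-193-5p (left) and miR-986-5p (right) in Ago1 libraries in RPM, with 35 d in red beside 5 d in blue for each genotype and sex, circles for replicate 1 and squares for replicate 2, and grey lines joining siblings. All 8 lines run upward to 5 d for miR-193-5p, which spans 16.6 to 197 RPM, and downward to 5 d for miR-986-5p, which spans 1702 to 12418 RPM.

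The values that chose the members were these. The averaged age change in Ago1 passed an adjusted p of 0.05 in edgeR's quasi-likelihood test for 4 of 199 miRNAs tested, 2.01%. miR-34-5p, known in flies for its role in the ageing brain, and miR-986-5p were the 2 that were higher at 35 d, and miR-193-5p and miR-2c-5p the 2 that were lower. Of these miR-986-5p was just inside the threshold, at an adjusted p of 0.0272. miR-1-3p, the abundant miRNA of muscle, was just outside it, with a log2 change of −0.68 and an adjusted p of 0.0650. Under some other scalings only 1 miRNA was called with a rise at 35 d, so the calls that chose the members depend on the scaling. miR-34-5p was higher at 35 d in 8 of 8 pairs, by 0.63 to 1.82 on the log2 scale, and miR-2c-5p, of the miR-2 family, was lower in 8 of 8, with log2 changes of −2.71 to −0.76. The summed level of the muscle markers miR-1-3p and miR-133-3p also moved with age. It was 75537 to 179072 RPM in old Ago1 libraries (median 118542) and 108056 to 230790 RPM in young ones (median 205982), and 0 of these 2 markers were at 0 in either. Its part in the age change of miR-193-5p was not tested.

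Among Ago2 libraries miR-986-5p showed the same direction on fewer reads. In dFOXO-null females its level was 11763 and 8749 RPM at 35 d, against 6128 and 5717 RPM at 5 d. In wDah females it was 3175 and 3822 RPM at 35 d, against 2796 and 2585 RPM at 5 d. Old and young libraries did not overlap in either genotype, but the gap was small in wDah females. In dFOXO-null males it was 9061 and 11526 RPM at 35 d, against 4665 and 5285 RPM at 5 d. In wDah males it was 6455 and 5993 RPM at 35 d, against 4030 and 4919 RPM at 5 d. In males, too, both old libraries lay above both young ones. The level was higher at 35 d in 8 of 8 sibling pairs, with log2 changes of 0.18 to 1.13 (median 0.65) and a fitted change of 0.67 ± 0.22 (SE), on 86 to 2763 reads per library.

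miR-193-5p in Ago2 was near the limit of detection in females. In dFOXO-null females it had 0 and 10 reads at 35 d, 0 and 55.2 RPM, against 0 and 39 reads at 5 d, 0 and 129 RPM. In wDah females it had 0 and 2 reads at 35 d, 0 and 27.7 RPM, against 1 and 12 reads at 5 d, 32.5 and 135 RPM. The 3 libraries at 0, all of replicate 1, are shallow, and 3 reads would correspond to 98.0 RPM in the old and 95.8 RPM in the young dFOXO-null female library and to 57.4 RPM in the old wDah female library. A difference between the ages was not detectable at this depth in females of experiment 1. In dFOXO-null males it was 57.2 and 155 RPM at 35 d, against 155 and 261 RPM at 5 d. In wDah males it was 41.4 and 99.0 RPM at 35 d, against 167 and 304 RPM at 5 d. Males of both genotypes thus lay lower at 35 d in each pair, though the higher old and the lower young dFOXO-null male library were at nearly the same level. Over the 8 pairs it was lower at 35 d in 7 and at 0 in both members of the eighth, and the 6 pairs with reads on both sides had log2 changes of −2.29 to −0.75 (median −1.53). The fitted change was −1.56 ± 0.56 (SE), but without the young dFOXO-null female library of replicate 2 it was 0.10, without the old one of that genotype, sex and replicate it was −2.96, and without the old wDah female library of replicate 2 it was −2.65. In this fit no age change passed the threshold among 138 miRNAs tested (0%), while 25 had an unadjusted p under 0.05 in edgeR and DESeq2 called 5.

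**Figure D2:**
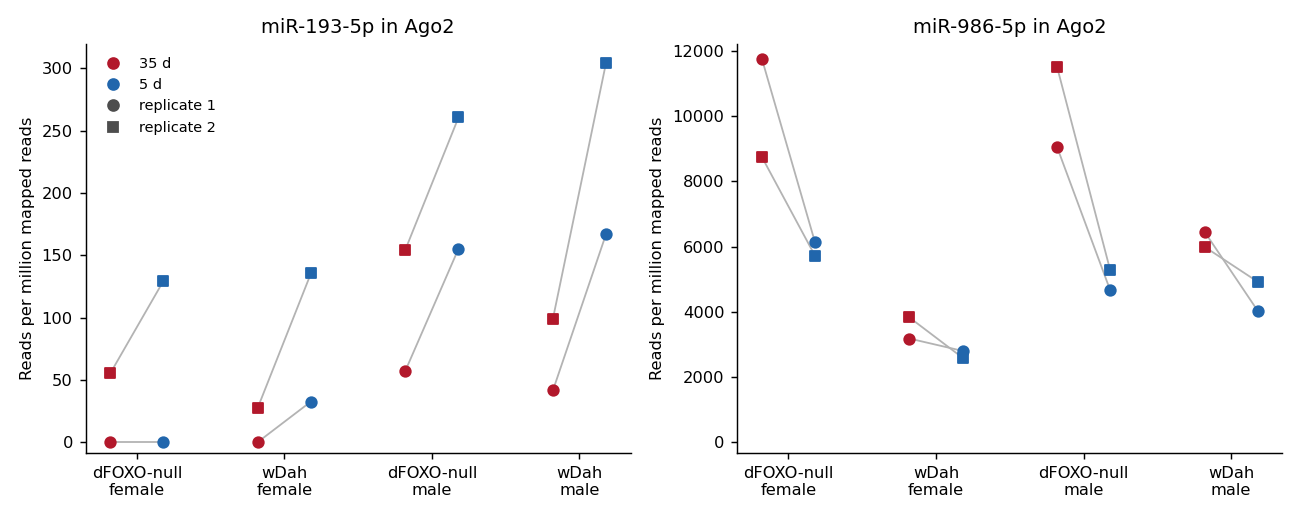
Level of miR-193-5p (left) and miR-986-5p (right) in Ago2 libraries in RPM, drawn as for Ago1, with 35 d in red, 5 d in blue and siblings joined. miR-986-5p was higher at 35 d along all 8 lines, and the old dFOXO-null libraries of both sexes, at 8749 to 11763 RPM, stand above all others, while 3 of the 8 female libraries hold no read of miR-193-5p.

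The next comparison asks whether the age change itself depended on genotype or sex, which the selection did not use. For miR-193-5p in Ago1 the change in dFOXO-null pairs was −1.65 to −0.67 on the log2 scale and in wDah pairs −3.01 to −1.95. How many other miRNAs have separate ranges in the 2 genotypes was not counted. The difference, dFOXO-null minus wDah, was 1.05 ± 0.67 (SE) and did not pass the test (edgeR's quasi-likelihood test, adjusted p = 0.791). No miRNA passed it among 199 tested (0%), with 12 at an unadjusted p under 0.05 and 0 called by DESeq2, and the median difference over these miRNAs was −0.35, or 0.0087 with the median-of-ratios scaling of DESeq2. For miR-986-5p in Ago1 the change was 0.90 to 1.44 in dFOXO-null pairs and 0.36 to 0.91 in wDah pairs, a difference of 0.52 ± 0.38 (adjusted p = 0.817). In Ago2 the same difference was 1.12 ± 1.13 for miR-193-5p and 0.49 ± 0.44 for miR-986-5p (edgeR, adjusted p = 1.00 for both), where 0 of 138 miRNAs were called (0%), 1 had an unadjusted p under 0.05 and DESeq2 called 0. Between the sexes the age change in Ago1 differed by 0.03 ± 0.68 for miR-193-5p and by −0.0018 ± 0.39 for miR-986-5p, female minus male (edgeR, adjusted p = 1.00 for both). Here 0 of 199 miRNAs were called (0%), 5 had an unadjusted p under 0.05 and DESeq2 called 0. In Ago2 it differed by −0.54 ± 1.10 for miR-193-5p and by −0.18 ± 0.44 for miR-986-5p, with 0 of 138 called (0%), 3 at an unadjusted p under 0.05 and 0 called by DESeq2. For miR-193-5p the standard errors of these differences were at least as large as the smallest age change seen in a pair, so a difference of that size would not be detectable.

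**Figure D3:**
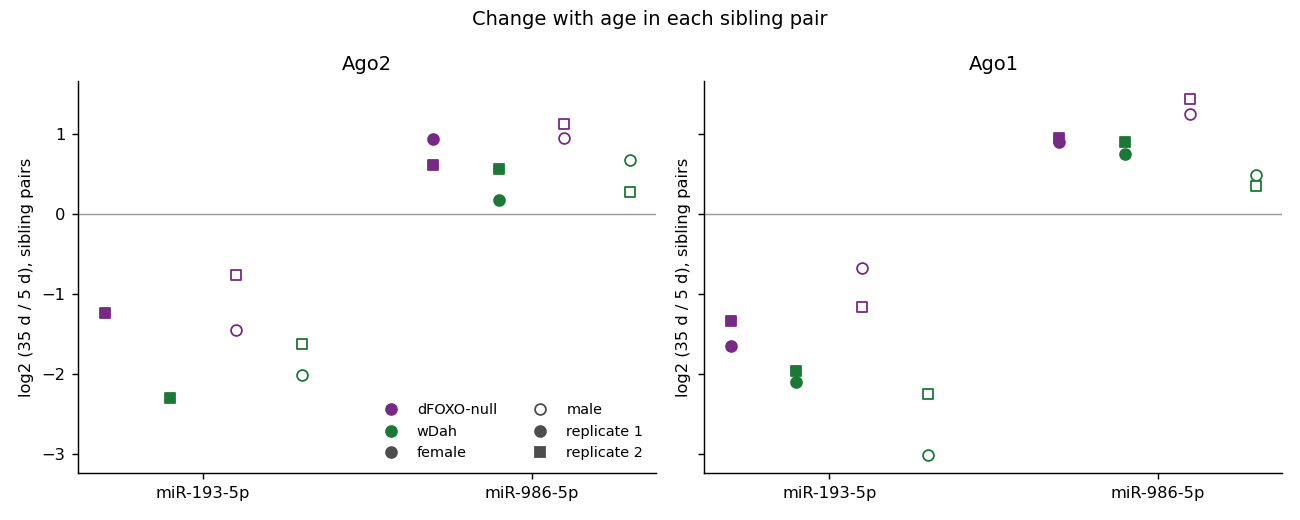
Log2 change with age, 35 d over 5 d, in each sibling pair for miR-193-5p and miR-986-5p in Ago2 (left) and Ago1 (right), with dFOXO-null in purple, wDah in green, filled symbols for females, open symbols for males, circles for replicate 1 and squares for replicate 2. Pairs with 0 reads at either age have no point. In Ago1 the dFOXO-null pairs of miR-193-5p lie between −1.65 and −0.67 and the wDah pairs between −3.01 and −1.95.

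The share of miR-193-5p reads that were 21 nt long was higher in old than in young Ago1 libraries, as was that of all mapped reads. Reads of exactly 21 nt made up 43.3% to 61.1% of the miR-193-5p reads of up to 25 nt in 7 old libraries with at least 20 such reads (median 53.3%), against 35.4% to 45.1% in the 8 young ones (median 39.7%). The share was higher at 35 d in 6 of 7 sibling pairs, by a median of 16.6 percentage points over all 7, and the exception was the dFOXO-null female pair of replicate 2, at −1.84 points. Over all mapped reads the 21-nt share was 16.3% to 20.5% in old Ago1 libraries (median 17.6%) and 11.5% to 14.2% in young ones (median 13.0%), higher at 35 d in 8 of 8 pairs, by a median of 4.38 points. The share was also computed for the 104 miRNAs with at least 20 reads in each Ago1 library and a row of 21-nt reads. Of these, 18 had a higher share at 35 d in 8 of 8 pairs, miR-34-5p among them with a median of 6.46 points. The median difference of a miRNA had a median of 0.951 points over the 104. It was above 0 for 74 of the 104 and at least as large as that of miR-193-5p for 2 of them. The share of all mapped reads also depends on which miRNAs are abundant. The part of these differences in that of miR-193-5p was not tested. The lowest read number behind a share was 32, for which 59.4% has a 95% Wilson interval of 42.3% to 74.5%. Without molecular identifiers this interval covers counting error only.

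The 3p arm of miR-193, the scarcer arm, showed no common direction with age. miR-193-3p was at 1.92, 3.30 and 13.5 RPM (lowest, median and highest) in old Ago1 libraries and at 1.11, 6.42 and 12.4 RPM in young ones. It was higher at 35 d in 4 of 8 pairs and lower in the other 4, on 2 to 73 reads per library. The 5p arm held 83.2% to 94.2% of the reads of both arms at 35 d (median 86.3%) and 89.1% to 98.5% at 5 d (median 95.5%). This arm share was lower at 35 d in 7 of 8 pairs, with a median difference of −9.51 points over all 8, the dFOXO-null male pair of replicate 1 being the exception. It is built from the 5p reads whose age change chose miR-193, so it is not independent of that choice.

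In the table of reads mapped to the dm6 genome the mir-193 hairpin is counted as a whole, and it had more reads than its 2 arms together. The share of hairpin reads that are in neither arm row was 32.9% to 42.2% in old Ago1 libraries (median 40.0%) and 19.4% to 28.5% in young ones (median 23.6%). It was higher at 35 d in 8 of 8 pairs, by 9.93 to 21.5 points (median 16.2), and the ages did not overlap. In Ago2 it was higher at 35 d in the 3 pairs with at least 20 hairpin reads at both ages, by 18.4 to 22.8 points. Which lengths or positions these reads have was not examined, since the table gives only their number per hairpin. The arm rows thus held a smaller part of the hairpin's reads at 35 d than at 5 d. Since the 5p reads in Ago1 chose miR-193 by their age change, the share in neither arm row is not independent of that choice. Counted over the whole hairpin, the fitted age change in Ago1 was −1.56 ± 0.45 (SE), beside −1.73 for the 5p row. The former was scaled to the reads counted on dm6. For mir-986 the share in neither arm row was 0.391% to 2.31% in old and 0.212% to 3.55% in young Ago1 libraries, and higher at 35 d in 4 of 8 pairs, so the 5p row held nearly all of that hairpin's reads at both ages. Hairpin and arm reads come from separate alignments. Their share was computed for mir-193 and mir-986 only, so how common a shift like that of mir-193 is among other hairpins is not known.

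**Figure D4:**
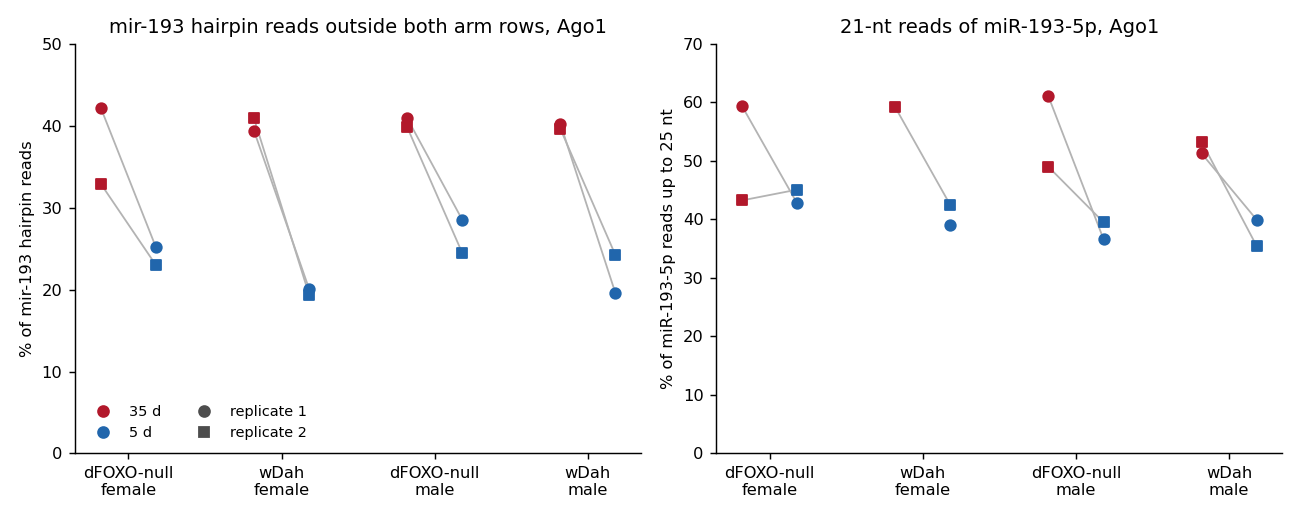
Percent of mir-193 hairpin reads that are in neither arm row (left) and percent of miR-193-5p reads that are exactly 21 nt long (right) in Ago1 libraries, with 35 d in red, 5 d in blue and siblings joined by lines. On the left all 8 old libraries lie at 32.9% or above and all 8 young ones at 28.5% or below, and on the right the wDah female library of replicate 1 at 35 d, with under 20 reads, has no point.

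miR-986-3p was scarce. It was at 9.08, 20.2 and 56.7 RPM (lowest, median and highest) in old Ago1 libraries and at 6.08, 13.9 and 20.7 RPM in young ones, higher at 35 d in 7 of 8 pairs, with a fitted log2 change of 0.87 ± 0.40 (SE). The 5p arm held 98.98% to 99.9% of the reads of both miR-986 arms in every Ago1 library. In Ago2 the 3p arm of either hairpin averaged under 5 reads a library and was not tested there.

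Sex was tested next, with female over male averaged over genotype and age. miR-986-5p was lower in females in Ago1. It was at 1702, 2815 and 4595 RPM (lowest, median and highest) in female and at 3417, 5560 and 12418 RPM in male Ago1 libraries, lower in the female library of 8 of 8 matched pairs. The log2 difference was −1.06 ± 0.19 (SE) with an adjusted p of 0.000163 in edgeR's quasi-likelihood test, and it was −0.98 in experiment 1 and −1.15 in experiment 2. Such a call was common, since 99 of 199 miRNAs (49.7%) differed between the sexes in Ago1, of which 55 (27.6%) were lower in females. With TMM scaling, by which edgeR centres most features on no change, 137 were called, 28 higher and 109 lower, and the median over all features was −0.13 in place of 0.38, while miR-986-5p remained lower at −1.63.

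miR-193-5p had the same direction in Ago1 without passing the test. It was at 20.7, 57.7 and 127 RPM in female and at 16.6, 84.1 and 197 RPM in male Ago1 libraries, lower in the female of 7 of 8 matched pairs, with a log2 difference of −0.55 ± 0.34 (SE, edgeR, adjusted p = 0.166), −0.58 in experiment 1 and −0.61 in experiment 2. With the replicate number as a block the difference was −0.55 with an adjusted p of 0.0375, and with TMM scaling it was −1.12 with an adjusted p of 0.00904. The 3p arms were not called, at −1.04 ± 0.49 for miR-193-3p (adjusted p = 0.0772) and −0.77 ± 0.40 for miR-986-3p (adjusted p = 0.108). Each passed under 4 of 8 other settings, with TMM scaling at −1.62 for miR-193-3p and −1.28 for miR-986-3p, and miR-193-3p also with the replicate block, at −1.12 (edgeR, adjusted p = 0.00708). In Ago2 it was miR-193-5p that passed. miR-193-5p was at 0, 30.1 and 135 RPM in female and at 41.4, 155 and 304 RPM in male Ago2 libraries, lower in the female of 8 of 8 matched pairs. In the 35 d pairs of replicate 1 the female had 0 reads, and the male was at 41.4 RPM (wDah) or 57.2 RPM (dFOXO-null). In those female libraries 3 reads would correspond to 57.4 and 98.0 RPM, so the direction of these pairs is not resolved at this depth. The log2 difference of miR-193-5p was −1.56 ± 0.56 (SE, edgeR, adjusted p = 0.0208), −3.54 in experiment 1, which holds all the libraries at 0, and −1.28 in experiment 2. miR-986-5p did not pass the test in Ago2, at −0.33 ± 0.22 (edgeR, adjusted p = 0.189), and its female library was lower in 5 of 8 matched pairs.

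The Ago2 sex differences moved with the library size. There 84 of 138 miRNAs (60.9%) were called, 37 (26.8%) higher and 47 (34.1%) lower in females, against 9 higher and 96 lower with TMM scaling, where the median over all features was −0.25 in place of 1.19, and 43 higher and 28 lower when the library size was the sum of miRNA reads alone. For miR-986-5p the difference was −1.90 with TMM scaling (adjusted p = 8.20e-07) and 0.16 with miRNA reads alone (adjusted p = 0.504). For miR-193-5p it was −3.13 with TMM scaling and −1.11 with miRNA reads alone (adjusted p = 0.0951). Without any 1 of 3 libraries, the wDah female of replicate 1, the dFOXO-null male of replicate 2 or the wDah male of replicate 2, all at 35 d, its adjusted p was 0.0502, 0.0808 and 0.0585 (edgeR). The ovary markers summed to 7588 to 40797 RPM in female and 21.4 to 922 RPM in male Ago2 libraries and the testis markers to 55.4 to 457 RPM in female and 1006 to 3235 RPM in male ones, with 9 of 19 testis markers at 0 in the females and 0 of 3 ovary markers at 0 in the males. The share of reads that are not miRNAs also moves with sex. The part of any of these in the sex differences of miR-193-5p and miR-986-5p was not tested.

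dFOXO-null and wDah flies were compared over both sexes and ages. In Ago1 neither passed the test, with log2 differences of 0.02 ± 0.19 for miR-986-5p (edgeR, adjusted p = 0.980) and 0.31 ± 0.34 for miR-193-5p (adjusted p = 0.705). Of 199 miRNAs 2 were called there (1.01%), 1 higher (0.503%) and 1 lower in dFOXO-null flies. In Ago2 miR-986-5p was at 4665, 7439 and 11763 RPM in dFOXO-null and at 2585, 3926 and 6455 RPM in wDah libraries (lowest, median and highest). The dFOXO-null library was higher in 8 of 8 matched pairs, although the genotypes overlapped over sexes and ages. The log2 difference was 0.89 ± 0.22 (SE), 0.92 in experiment 1 and 0.85 in experiment 2. It did not pass the threshold over all features (edgeR, adjusted p = 0.0762), but did with the experiment as a block, at 0.89 (adjusted p = 0.0275). No miRNA did among 138 (0%), with 14 at an unadjusted p under 0.05 and 2 called by DESeq2, in which miR-986-5p had a log2 difference of 0.95 and an adjusted p of 0.00819. For miR-193-5p the difference in Ago2 was 0.40 ± 0.56 (edgeR, adjusted p = 0.973). A contrast added after the values were seen asked whether the genotype difference of miR-986-5p was larger in Ago2 than in Ago1. It was 0.87 ± 0.26 with an adjusted p of 0.346 in edgeR, where 0 of 194 miRNAs (0%) were called and 8 had an unadjusted p under 0.05, and it was not run in DESeq2.

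In Ago1 miR-986-5p was less often 21 nt long in dFOXO-null than in wDah flies. Reads of 21 nt made up 20.1% ± 4.9 of its reads in dFOXO-null and 30.2% ± 5.8 in wDah Ago1 libraries (SD, n = 8 each). In dFOXO-null libraries the lowest, median and highest share were 15.3%, 18.6% and 31.2%, and in wDah libraries 22.4%, 30.9% and 37.3%. The groups overlapped through the dFOXO-null male library of replicate 1 at 35 d, at 31.2%. The share was lower in the dFOXO-null library of 8 of 8 matched pairs, with a mean difference of −10.1 points, −10.7 in experiment 1 and −9.51 in experiment 2. The two-sided exact permutation test of genotype within sex and age counts libraries as independent. Yet siblings share an experiment, and both sexes of a genotype were kept together. That permutation test gave p = 0.00154, the smallest that this design allows, and 0.0185 after Benjamini-Hochberg adjustment over the 12 tests of shares made here. Without any 1 of 4 libraries, the dFOXO-null females of replicate 1 at either age and of replicate 2 at 5 d and the wDah male of replicate 2 at 35 d, this adjusted p was 0.0556 to 0.0625.

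The same share was then computed for the 104 miRNAs with at least 20 reads in each Ago1 library, a comparison added after the values were seen. miR-986-5p had the lowest difference of the 104, which ranged from −10.1 to 9.64 points with a median of −0.0509. It was the 1 miRNA (0.962%) that was lower in dFOXO-null in all 8 matched pairs, and 0 were higher in all 8. Adjusted over the 104 its exact permutation p became 0.160 and 0 of 104 were called (0%). Its unadjusted p was already the smallest that this design allows. A single miRNA at that p cannot pass this adjustment unless others come near it, so the adjustment could not decide here.

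Between the sexes the 21-nt share of miR-986-5p was 22.1% ± 6.4 in female and 28.2% ± 7.4 in male Ago1 libraries (SD, n = 8 each), a difference of −6.12 points with the female lower in 8 of 8 matched pairs. The exact two-sided sign-flip test gave p = 0.00781, the smallest it allows, and 0.0313 adjusted over the 12 tests. It was above 0.05 with any 1 of 14 of the 16 libraries left out, at most 0.0625. With 1 library left out 7 matched pairs remain, and the sign-flip test cannot go below 0.0156 before adjustment. The difference then stayed at −6.93 to −4.95 points. Over the 104 miRNAs its adjusted p was 0.0387, and 37 of them (35.6%) were called, with miR-986-5p 15th from the lowest difference. For miR-193-5p the share differed by 2.32 points between the sexes and by 1.29 points between the genotypes, and neither passed (exact permutation tests, adjusted p = 0.542 and 0.660). With age, as a description, the 21-nt share of miR-986-5p was higher at 35 d in 7 of 8 Ago1 pairs, by a median of 2.28 points over all 8, with the wDah female pair of replicate 1 at −12.3 points as the exception.

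**Figure D5:**
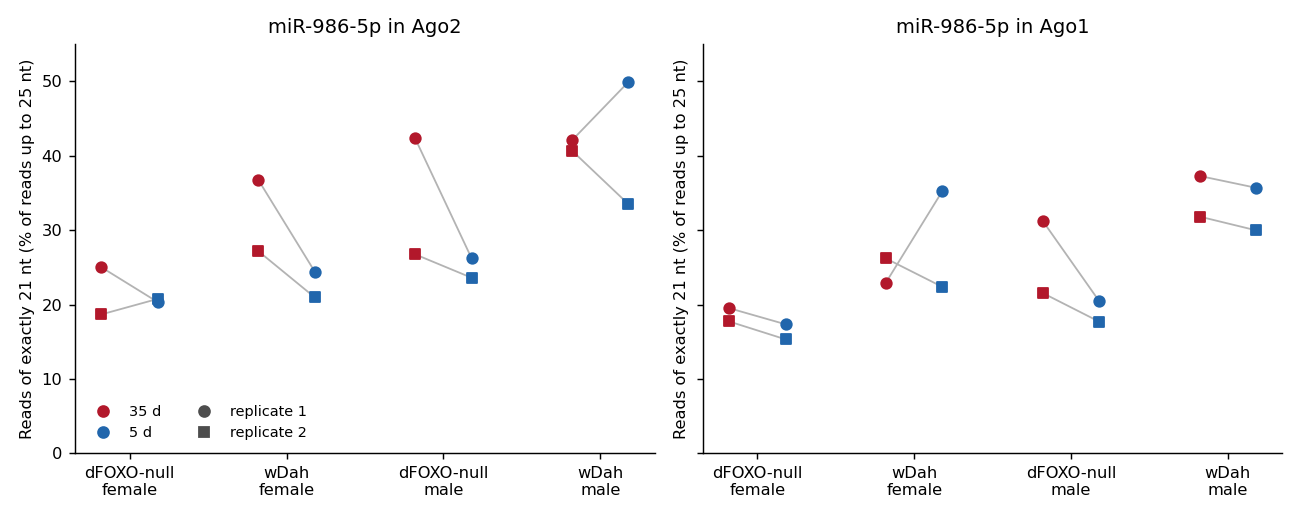
Percent of miR-986-5p reads of up to 25 nt that are exactly 21 nt long in Ago2 (left) and Ago1 (right) libraries, with 35 d in red beside 5 d in blue for each genotype and sex and siblings joined by lines. In Ago1 the dFOXO-null libraries lie between 15.3% and 31.2% and the wDah libraries between 22.4% and 37.3%.

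Ago2 was set against Ago1 over all groups. miR-986-5p was at 2585, 5501 and 11763 RPM in Ago2 and at 1702, 4044 and 12418 RPM in Ago1 libraries (lowest, median and highest), higher in the Ago2 library of 11 of 16 matched pairs. The log2 ratio was 0.41 ± 0.13 (SE, edgeR, adjusted p = 0.00815), 0.64 in experiment 1 and 0.23 in experiment 2, where it did not pass (adjusted p = 0.402). Of 194 miRNAs tested 84 were called (43.3%), 49 of them (25.3%) higher and 35 (18%) lower in Ago2. The direction depended on the scaling, since the ratio of miR-986-5p was −1.41 with TMM scaling, where 15 were higher and 141 lower and the median over all features was −0.74 in place of 1.06. For miR-193-5p the ratio was 0.28 ± 0.34 (SE, adjusted p = 0.509), or −1.48 with TMM scaling. A share within a miRNA does not depend on library size. The 21-nt share of miR-986-5p was 29.9% ± 9.6 in Ago2 and 25.1% ± 7.4 in Ago1 (SD, n = 16 each), 4.80 points higher in Ago2 and higher in 14 of 16 matched pairs (exact two-sided sign-flip permutation test, p = 0.00735, adjusted over the 12 tests 0.0313). This call was lost with any 1 of 17 of the 32 libraries left out (adjusted p up to 0.0625), without the pairing (0.0741) and within either experiment alone. Among the 43 miRNAs with a row of 21-nt reads and at least 20 reads in every library, 21 (48.8%) were called, 12 of them higher in Ago2. This comparison was added after the values were seen. For miR-193-5p the difference of this share, Ago2 minus Ago1, was −3.29 points over the 7 matched pairs with enough reads (exact test, adjusted p = 0.542), and no arm share passed the exact tests by sex, genotype or Argonaute (adjusted p = 0.542 to 0.554).

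The miRNAs whose levels ran most like each member were named by Pearson's r of log2(RPM + 1) over the 16 Ago1 libraries, among 198 others, as a description, since these libraries share their depth, sex, age and genotype. For miR-193-5p they were miR-1-3p (r = 0.80), miR-2c-5p (0.75), miR-375-3p (0.69), miR-315-5p (0.68) and miR-999-3p (0.68). For miR-986-5p they were miR-263a-5p (0.83), miR-929-3p (0.82), miR-304-3p (0.75), miR-263b-5p (0.74) and miR-285-5p (0.73). The 2 members had r = −0.11 with each other. Both were also higher in experiment 2 than in experiment 1 in 8 of 8 Ago1 groups, and in Ago2 this held for miR-193-5p in 8 of 8 groups and for miR-986-5p in 4 of 8. Among 12 miRNAs known from fly ageing and metabolism, such as let-7-5p, miR-14-3p and bantam-3p, 1 was called higher with age in Ago1, miR-34-5p, and 0 lower, with a median log2 change of 0.30 beside 0.13 over all 199. Neither member is on that list, and in Ago2 0 of the 12 were called.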

How the data were processed

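The authors trimmed adapters with Trim Galore, reverse-complemented the reads, kept reads of up to 25 nt or of exactly 21 nt, aligned them with Bowtie allowing 1 mismatch and reporting all valid positions, to a collection of mature miRNAs, their passenger strands, transposons and spike-ins or to dm6, and counted reads with featureCounts, which gave the deposited counts. The deposited percent tables, each count over the mapped reads without spike-ins, were not used in tests. Versions of these tools were not given in the sources used here. The study then removed features averaging under 5 reads with DEBrowser, and the tables used here are those from before its normalization. Differences in counts come from quasi-likelihood fits in edgeR 4.0.16 (R 4.3.3) with a mean for each group, on the 16 libraries of an Argonaute or all 32, with mapped reads without spike-ins as library size, features averaging at least 5 reads, and Benjamini-Hochberg adjustment over all features of the fit at 0.05. Alternatives were DESeq2 1.42.0, other scalings, no filter, reads of 21 nt, hairpin reads, 1 experiment alone, the experiment as a block and leaving out each library. For hairpin reads the library size was the reads counted on dm6, and for reads of 21 nt the mapped reads of that length. Shares were tested with exact permutations in Python 3.11.15 and SciPy 1.17.1. The edgeR fit and the sign-flip test were tested on simulated data, and the permutation of genotype within sex and age was not. Members, lists and the rule for named miRNAs (the rows of both hairpins, the other miRNAs called with age in Ago1, those beside the threshold, the 5 most alike, shared seeds and 12 ageing miRNAs, counted) were chosen with earlier results of these data known. Experiment numbers pair old and young samples, since siblings share them. In Ago1, deviations of same-numbered libraries correlated at 0.432 to 0.662 between ages, 0.472 to 0.636 between genotypes and 0.225 to 0.594 between sexes. In Ago2 these were −0.0866 to 0.502, −0.127 to 0.288 and −0.0839 to 0.415. The main edgeR fits used no pairing, and the experiment entered only as the alternative block. The exact tests matched sexes and Argonautes by experiment number, whereas genotype was permuted within sex and age. Counts of matched pairs go by experiment number in both Argonautes and are descriptions. The p-values measure the spread between these lysates. They count the lysates as independent, although siblings share an experiment and both sexes of a genotype were kept together.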

Additional observations from a re-analysis of the deposited data

Results flagged for a closer look

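In Ago2 libraries of males, miR-986-3p moved in opposite directions with age in the 2 genotypes, with a median log2 change of 1.11 over both dFOXO-null pairs and of −2.37 over both wDah pairs. The levels were 76.3 and 23.2 RPM at 35 d against 18.8 and 20.05 RPM at 5 d in dFOXO-null males, and 10.4 and 4.12 RPM at 35 d against 71.5 and 16.02 RPM at 5 d in wDah males. They rest on 1 to 9 reads a library, and the difference between the genotypes was not tested.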

How the results depend on the processing

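The libraries have 2 replicates a group, and Ago2 held few miR-193-5p reads, so depth limits that miRNA in Ago2 females. Over the 5p arms and the shares, 235 of 292 values under other settings stayed the same, as did 562 of 640 with 1 library left out. The same here means an unchanged direction and call, whether passing or not. Age changes have no call, and for them it means an unchanged direction and a shift below 1 SD of the pair changes. The age changes of both 5p arms in Ago1 and of miR-986-5p in Ago2 kept their direction under every setting. The causes of the changes that follow were not tested, except for limits of the exact tests. With 4 matched pairs (1 experiment, between sexes or genotypes) an exact test cannot go below 0.125. Between Argonautes an experiment holds more matched pairs, so this limit does not apply there. With 7 matched pairs (1 library left out between sexes) an exact test cannot go below 0.0156.

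Among TMM scaling, median-of-ratios scaling, miRNA reads as library size and DESeq2, these moved a count of called miRNAs by over 1.5 times. The age change in Ago1 was called for 4 miRNAs, against 7 in DESeq2. Of these 4, 2 rose with age. TMM scaling kept only 1 rise beside 2 falls, and the median-of-ratios fit had 1 rise beside 3 falls. So miR-34-5p and miR-986-5p were not both called under these scalings. With miRNA reads as library size and in DESeq2, 2 rises were called. In Ago2 the age change was called for 0, against 2 with median-of-ratios scaling, 1 with miRNA reads and 5 in DESeq2. The genotype difference was called for 2 in Ago1, against 1 with TMM scaling, 1 with median-of-ratios scaling and 7 in DESeq2, and for 0 in Ago2, against 1, 1 and 2. The ratio of Ago2 to Ago1 was called for 84, against 156, 150 and 145.

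The ratio of Ago2 to Ago1 turned negative under other scalings and over hairpin reads. With TMM scaling, median-of-ratios scaling and DESeq2 it was −1.41, −1.07 and −1.07 for miR-986-5p, −1.48, −1.10 and −1.12 for miR-193-5p, and −1.34, −1.03 and −0.60 for miR-193-3p. Over reads of 21 nt it was 0.15 for miR-986-5p and −1.09 for miR-193-5p, over hairpin reads in the dm6 table −3.54 and −3.23, in experiment 2 alone 0.23 for miR-986-5p and in experiment 1 alone −0.091 for miR-193-5p. The library size of the hairpin fit was the reads counted on dm6, with medians of 1166480.5 in Ago2 and 1547161 in Ago1. For reads of up to 25 nt these medians were 111162 and 2381814.5. The part of this other library size was not tested. For miR-986-3p, at −0.18, the ratio was −1.88 with TMM scaling, −1.64 with median-of-ratios scaling and −1.64 in DESeq2. It was 0.23 with miRNA reads as library size, 0.17 in experiment 1 alone and 0.26 in experiment 2 alone. With a replicate block the ratio was −0.081 for miR-193-3p. miR-986-3p and miR-193-3p passed the read filter of this fit only through Ago1. They had 48 and 30 reads over 16 Ago2 libraries, against 816 and 321 over 16 Ago1 libraries, so their ratios are descriptions.

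The sex difference of miR-193-5p in Ago1 passed the threshold with TMM scaling (−1.12), median-of-ratios scaling (−1.06), DESeq2 (−1.06), the replicate block (−0.55) and hairpin reads (−1.87). In Ago2 that of miR-193-5p did not pass with miRNA reads as library size (−1.11). That of miR-986-5p in Ago2 passed with TMM scaling (−1.90), median-of-ratios scaling (−1.59), DESeq2 (−1.59), reads of 21 nt (−1.42) and hairpin reads (−2.44), and was 0.16 with miRNA reads as library size.

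In Ago2 the genotype difference of miR-986-5p passed in DESeq2 (0.95) and with the replicate block (0.89, edgeR adjusted p = 0.0275). Between genotypes and between sexes in Ago2 not every pair of same-numbered libraries deviated together, so the data there do not show that the experiment is shared. Apart from this call and the sex difference of miR-193-5p in Ago1, the block changed no call of a 5p arm level. The genotype difference of miR-986-5p in Ago1 was −0.046 with TMM scaling, −0.079 with median-of-ratios scaling and with DESeq2, −0.62 over reads of 21 nt and −0.036 over hairpin reads, and that of miR-193-5p in Ago2 was −0.10 in experiment 1 alone. The added contrast of the genotype difference of miR-986-5p between Ago2 and Ago1 was 0.87 with the block (edgeR adjusted p = 0.0952) and 0.97 with TMM scaling (adjusted p = 1.00).

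The age change of miR-193-5p in Ago2 was −2.72 over reads of 21 nt and −0.75 over hairpin reads. By sex in Ago1 it differed by −0.049 with median-of-ratios scaling and with DESeq2, −0.0083 with the replicate block and −0.074 in experiment 1 alone for miR-193-5p, by 0.050 over reads of 21 nt, 0.030 in experiment 2 alone and 0.039 over hairpin reads for miR-986-5p, and by −0.088 in experiment 2 alone for miR-193-3p. By sex in Ago2 it differed by 0.10 over hairpin reads for miR-193-5p and by 0.41 over reads of 21 nt for miR-986-5p. By genotype in Ago1 it differed in experiment 1 alone by −0.62 for miR-193-3p and by 0.23 for miR-986-3p.

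Of the shares, in percentage points, the 21-nt share of miR-986-5p did not pass within 1 experiment, at −10.7 and −9.51 between genotypes, −7.39 and −4.85 between sexes and 5.91 and 3.68 between Argonautes in experiments 1 and 2, nor without the replicate block between sexes (−6.12) and Argonautes (4.80). That of miR-193-5p was −3.37 in experiment 2 alone and −0.471 with the replicate block between genotypes, and 2.01 with at least 50 reads and 0.459 in experiment 1 alone between Argonautes. The 5p arm share of miR-193 was −1.48 between Argonautes with at least 50 reads, and that of miR-986 was 0.0480 between sexes in experiment 1 alone.

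With 1 library left out, the 21-nt share of miR-986-5p ranged from −11.7 to −9.08 between genotypes, −6.93 to −4.95 between sexes and 4.17 to 5.84 between Argonautes, with adjusted p in the exact tests of at most 0.0625 and above 0.05 in 4 of 16, 14 of 16 and 17 of 32 cases, and that of miR-193-5p from −0.711 to 2.78 between genotypes. The arm share of miR-986 ranged from −0.164 to −0.0131 between sexes. The age change ranged from −2.96 to 0.10 for miR-193-5p in Ago2 and from −0.55 to 0.30 for miR-193-3p in Ago1. By sex it differed by −0.36 to 0.44 for miR-193-5p, −0.16 to 0.17 for miR-986-5p and −0.16 to 1.40 for miR-193-3p in Ago1, and by −3.34 to 2.79 for miR-193-5p in Ago2. By genotype it differed by −1.69 to 4.44 for miR-193-5p in Ago2, and in Ago1 by −0.065 to 1.63 for miR-193-3p and −0.97 to 0.15 for miR-986-3p. The genotype difference ranged from −0.060 to 0.10 for miR-986-5p in Ago1 and from −1.27 to 1.49 for miR-193-5p in Ago2. The sex difference ranged from −3.22 to −1.31 for miR-193-5p in Ago2 and from −1.54 to −0.69 for miR-193-3p in Ago1. The ratio of Ago2 to Ago1 ranged from −0.96 to 0.39 for miR-193-5p and from −0.79 to 0.38 for miR-193-3p.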
